A study of Mus musculus with 51 samples.

Results

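The genes described here are 38 chemokines, cytokines and NF-kB response genes measured in cultured mouse stromal cells. They were taken from a list of 39 symbols through probe sets that carry exactly 1 of those symbols, with the brightest probe set where a gene had more than 1, and they were 38 of 19938 genes read this way. Nfkb1 is not analysed here. The list holds 9 CC chemokines, 9 CXC and CX3C chemokines, 13 cytokines and 7 NF-kB response genes. Cxcl12 and Cxcl10 were left out of it by its rule.

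RNA came from stromal lines that had been tested for their support of hematopoietic stem and progenitor cells outside the body, and each line was read on 3 Affymetrix mouse gene 1.0 ST arrays. Labels state the support of each line as supportive, less-supportive or non-supportive. Apart from OP9, which is named a line, every line is a single clone, so a difference between 2 lines is a difference between 2 clones. OP9 arrays came from cultures at 33 °C and at 37 °C, so not all from the same culture. For the other lines, nothing states that the 3 arrays of a line came from separate cultures. The p-values therefore measure only how far arrays of a line spread, pooled over all confluent lines or all sorted groups. That spread may be technical.

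From the aorta-gonad-mesonephros region (AGM) of (CBAxC57BL/10)F1 embryos at day 11 came 4 clones, of which UG26.3B5 is labelled less-supportive and AM30-3F4, UG26.1B6 and AM14-1C4 supportive. C57BL/6 fetal liver (FL) at embryonic day 14.5 gave the supportive clones 2012 and AFT024 and the non-supportive clones AFT011, BFC and BFC012. Whether BFC and BFC012 are 1 clone is not given in the sources used here, and they are kept as separate groups. Adult bone marrow (BM) of the H2ts6 background gave BMC9, supportive, and BMC10, less-supportive, and adult BALB/c BM gave 14F1-1, supportive. OP9, supportive, came from fetal calvaria of (C57BL/6xC3H)F2-op/op mice, where op is a loss-of-function allele of Csf1. Cultures were taken at confluency on 0.1% gelatin at 33 °C, except 14F1-1 and OP9 replicates 1 and 2, which were grown at 37 °C. AFT024 and BFC012 were also cultured with or without BM KLS cells (c-Kit+ Sca1+ Lin- progenitors) and sorted after 4 days for absence of CD45, which gave 4 sorted groups of 3 arrays.

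Chemokines are small secreted or membrane-bound proteins that guide leukocytes through G protein-coupled receptors, and bone marrow and fetal liver stroma is a known source of several of them. Interleukins and colony-stimulating factors of the same cells act on the survival and differentiation of blood cells. Many of these genes are transcribed through NF-kB, a dimeric transcription factor held in the cytoplasm by inhibitors such as the product of Nfkbia. NF-kB also switches on its own brakes, Nfkbia and Tnfaip3, so transcripts of these 2 genes are commonly read together with its other targets.

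Signals are log2 values that had been normalized in 4 separate sets of 18, 6, 12 and 15 arrays, so levels are compared only inside a set. Between probe sets, signals are only placed against the array median or among all genes, as a rough guide to bright and dim genes. Array medians lay at 6.82 to 6.95, 5.04 to 5.09, 5.65 to 5.77 and 7.03 to 7.14 in the 4 sets. The first quartile of gene means was 5.74, 4.09, 4.65 and 6.01, and signals near or below these values are dim. Within groups, arrays correlated with the mean of the other 2 at 0.990 or above, except 3 sorted arrays: replicate 1 of BFC012 without KLS (0.9735), of AFT024 without KLS (0.9768) and of AFT024 with KLS (0.9783). Results on sorted cells are therefore given with and without the 4 sorted arrays numbered 1. The stromal label held in every line, with at least 8 of 12 stromal markers above the array median on all arrays of a group, while at least 17 of 21 leukocyte markers and at least 6 of 7 endothelial markers were below it. In bulk RNA, a smaller share of expressing cells and less RNA per cell cannot be told apart.

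The promoters of 6 genes are shown because they carry the DNA element that NF-kB binds and because values of these genes are described in detail. Tnfaip3 passed as higher in BFC012 cells cultured with KLS cells, where Nfkbia and Sod2 did not pass on all arrays. Cxcl1, Cxcl2, Il6 and Lif passed as higher in AM14-1C4 than in AM30-3F4, while Tnfaip3, Sod2 and Ccl9 passed as lower there. Lif and Ccl9 also hold a match but are not shown. Each stretch ends at the base before the transcription start and is written 5′ to 3′ on the strand of the gene, from RefSeq on GRCm38.p6. Capitals mark matches to the kappaB consensus on either strand, and overlapping matches are joined into 1 run.
Nfkbia, chr12:55492648-55492747, minus strand: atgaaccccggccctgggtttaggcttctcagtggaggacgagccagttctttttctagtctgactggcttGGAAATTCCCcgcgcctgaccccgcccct
Tnfaip3, chr10:19015411-19015540, minus strand: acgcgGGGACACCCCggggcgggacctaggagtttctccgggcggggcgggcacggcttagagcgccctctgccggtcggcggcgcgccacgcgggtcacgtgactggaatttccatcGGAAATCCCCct
Sod2, chr17:13007739-13007838, plus strand: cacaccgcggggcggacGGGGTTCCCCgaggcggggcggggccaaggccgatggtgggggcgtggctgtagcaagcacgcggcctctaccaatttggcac
Cxcl1, chr5:90891145-90891244, plus strand: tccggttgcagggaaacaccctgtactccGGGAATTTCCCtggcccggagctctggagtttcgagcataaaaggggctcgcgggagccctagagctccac
Cxcl2, chr5:90903799-90903898, plus strand: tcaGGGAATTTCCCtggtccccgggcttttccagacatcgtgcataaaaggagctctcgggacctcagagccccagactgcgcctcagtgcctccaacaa
Il6, chr5:30013014-30013113, plus strand: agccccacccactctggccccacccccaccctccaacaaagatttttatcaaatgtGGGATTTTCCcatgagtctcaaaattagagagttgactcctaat
The neighbouring genes Cxcl1 and Cxcl2 carry the same 11 bases, GGGAATTTCCC, from position -71 to -61 in Cxcl1 and from -97 to -87 in Cxcl2, counted back from the start. Tnfaip3 has 2 separate matches.

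Of the 38 genes, 27 had a RefSeq promoter entry. In the 250 bases before the start, a kappaB match was present in 10 of those 27 (37.0%), against 8.23% of all genes with an entry (2225 of 27025). Besides the 6 genes shown, Ccl9, Ccl20, Lif and Nfkb2 held one. An AP-1 match (TGANTCA, both strands) was present in 8 of 27 (29.6%, against 7.82% of all genes), and an interferon response element (both strands) in Cxcl14 alone (3.46% of all genes). A match describes these letters only and is no evidence that a factor binds there. The list was made up of chemokines, cytokines and NF-kB response genes, many of them known targets of NF-kB. A share of kappaB matches above that of all genes can follow from this choice, and it is no test.

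Most of the genes differed between lines. Among the 6 confluent lines UG26.1B6, UG26.3B5, AFT024, BFC012, BMC9 and BMC10, 31 of the 38 genes passed the limma F test over lines, against 55.4% of all genes tested, at an adjusted p under 0.05. Those that did not pass were Ccl11, Cxcl2, Il1a, Il1b, Tnf, Csf2 and Icam1, whose line means spanned at most 0.29. Line means ran from 5.03 in BFC012 to 9.12 in AFT024 for Cxcl5, from 7.08 in UG26.3B5 to 11.14 in AFT024 for Ccl5 and from 6.38 in BFC012 to 9.64 in UG26.1B6 for Ccl9. Il15 means ran from 4.84 in BFC012 to 7.08 in BMC9, and Ccl7 means from 9.44 in BFC012 to 11.76 in UG26.3B5. Il6 was higher in both UG26 clones than in the other lines, at 5.56, 5.85 and 5.48 and 5.39, 5.92 and 5.55, and no array of the other 4 lines exceeded 4.08. It was dim in the UG26 clones too, at percentiles 22.7 and 23.9 among all genes.

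Among 14F1-1, 2012, AFT011, AM14-1C4 and AM30-3F4, 26 of the 38 genes passed the same F test, against 56.9% of all genes. Ccl8, Ccl11, Ccl20, Cxcl9, Cxcl13, Cxcl14, Cxcl15, Il1b, Csf2, Csf3, Nfkbia and Icam1 did not pass. Ccl11, Il1b, Csf2 and Icam1 thus passed in neither set. The widest ranges of line means were those of Ccl5 (from 7.64 in AM30-3F4 to 12.19 in AM14-1C4), Il6 (from 4.57 in 2012 to 9.11 in AM14-1C4) and Il1rn (from 6.01 in AM14-1C4 to 10.54 in 14F1-1).

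**Figure D1:**
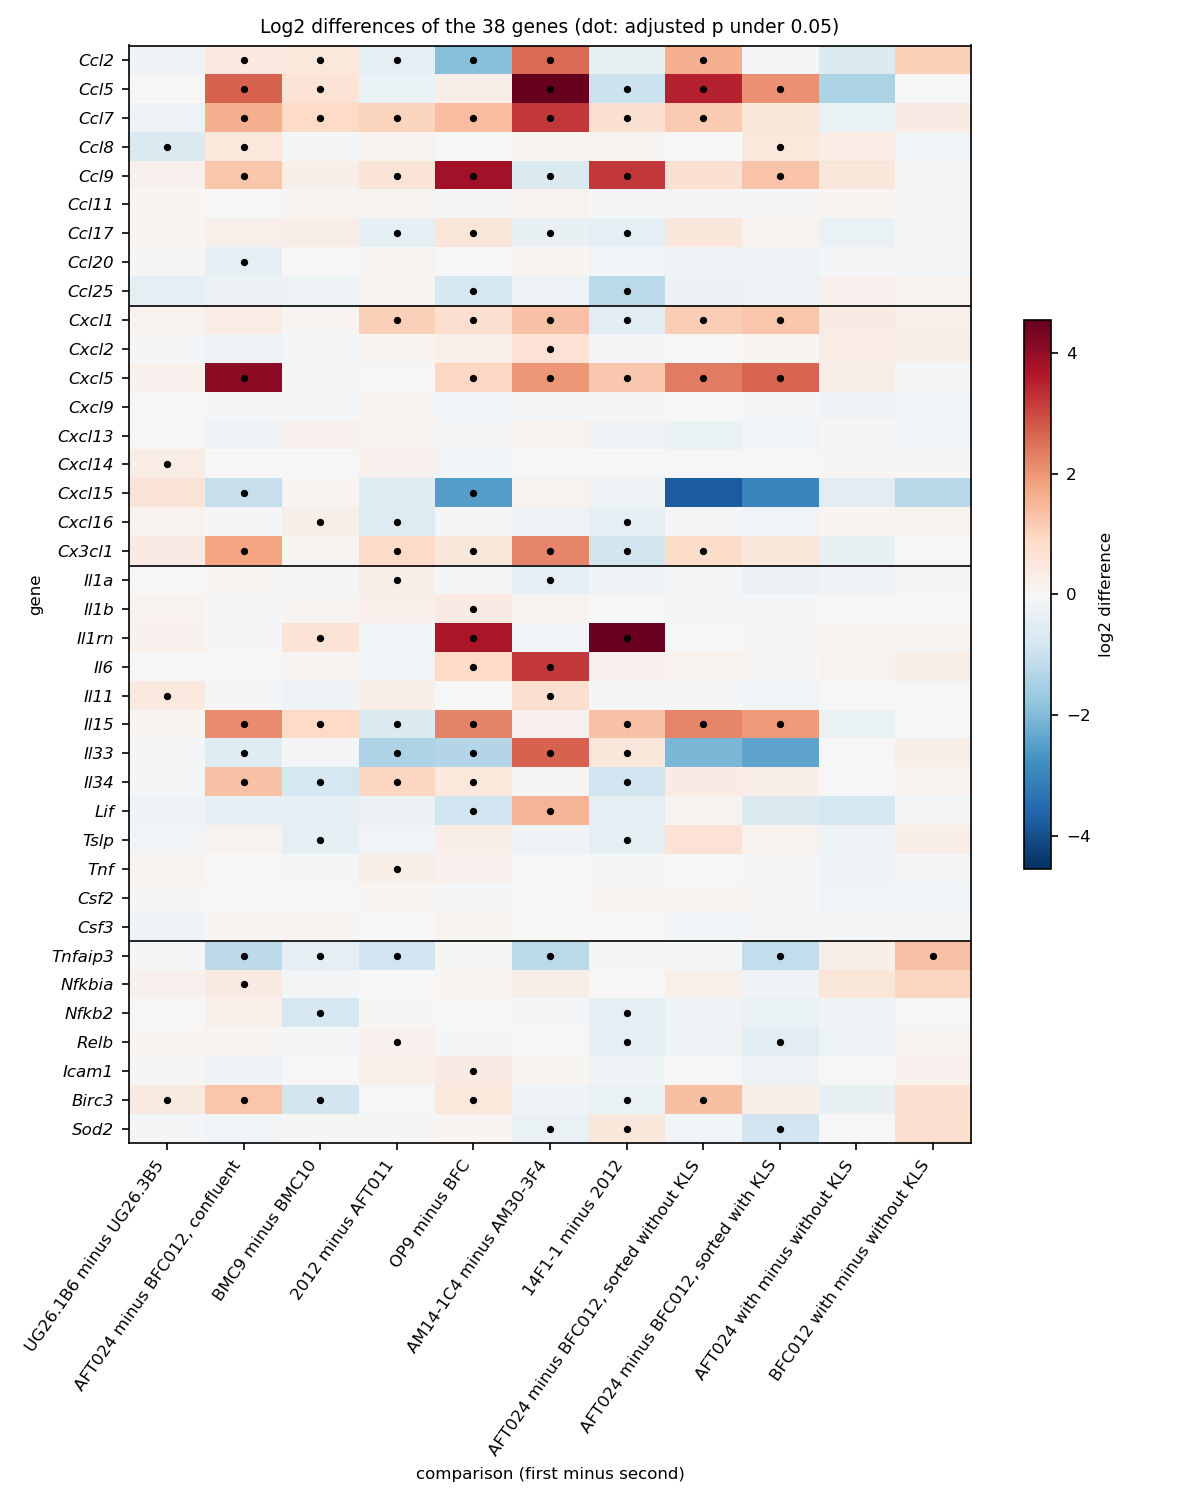
Log2 differences (colour) of the 38 genes (rows, ordered by role and separated by lines) in 11 comparisons (columns, first group minus second), with a dot where the adjusted p was under 0.05. The deepest colours are Ccl5 in the AM lines (4.55), Il1rn in 14F1-1 against 2012 (4.49) and Cxcl5 in confluent AFT024 against BFC012 (4.08), and few dots lie in the 2 columns that compare cells with and without KLS.

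In the AGM pair, the supportive UG26.1B6 was compared with the less-supportive UG26.3B5. Il11, Birc3 and Cxcl14 were higher and Ccl8 lower, all by under 2-fold, so that 4 of 38 genes passed, against 8.56% of all genes. Ccl8, a CC chemokine, read 5.20, 5.59 and 5.41 in UG26.1B6 and 5.66, 6.25 and 6.29 in UG26.3B5, and was 1.59-fold lower (log2 difference -0.67, SE 0.14, adjusted p = 9.47e-04). Cxcl14, a chemokine expressed widely in epithelia, read 6.42, 6.19 and 6.47 against 6.03, 5.85 and 6.15, and was 1.27-fold higher (log2 difference 0.35, SE 0.11, adjusted p = 0.0402). Il11, a cytokine of the Il6 family, read 6.97, 6.78 and 6.58 against 6.19, 6.25 and 6.49 and was 1.38-fold higher (log2 difference 0.46, SE 0.12, adjusted p = 0.00864). Birc3 encodes an inhibitor of apoptosis protein that acts downstream of tumor necrosis factor receptors. It read 7.55, 7.70 and 7.90 against 7.37, 7.33 and 7.26 and was 1.32-fold higher (log2 difference 0.40, SE 0.10, adjusted p = 0.00504). All 4 genes had groups that did not overlap, as had 7.80% of all genes while passing the test. Calls were lost for Il11 without UG26.1B6 replicate 1 (0.37, adjusted p = 0.0635) or UG26.3B5 replicate 1 (0.40, adjusted p = 0.0591), for Birc3 without UG26.1B6 replicate 3 (0.31, adjusted p = 0.061) and for Cxcl14 without UG26.1B6 replicate 1 or 3 or UG26.3B5 replicate 1 or 2 (adjusted p of 0.0815 to 0.211). Cxcl14 did not pass either when the arrays of the set were fitted alone (adjusted p = 0.0896). With the replicate number as a block, Ccl25 (difference -0.40) also passed, which made 2 genes lower.

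In the FL pair, confluent AFT024 (supportive) was compared with confluent BFC012 (non-supportive). AFT024 had 11 of the 38 genes higher and 4 lower, 15 in all, against 28.5% of all genes tested. The difference reached 2-fold in 10 of them, against 5.26% of all genes. CC chemokines made up 5 of the higher genes, and no other role had more than 2.

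Ccl5, a chemokine that attracts T cells and monocytes, read 11.45, 10.68 and 11.28 in AFT024 and 8.62, 8.21 and 8.48 in BFC012. It was 6.51-fold higher (log2 difference 2.70, SE 0.13, adjusted p = 1.72e-18). Ccl7, a ligand of the monocyte receptor CCR2, read 11.00, 10.85 and 11.35 against 10.35, 8.81 and 9.14 and was 3.1-fold higher (log2 difference 1.63, SE 0.21, adjusted p = 1.16e-07). Ccl9, a ligand of CCR1, read 7.55, 7.95 and 7.41 against 6.06, 6.57 and 6.51 and was 2.38-fold higher (log2 difference 1.25, SE 0.18, adjusted p = 1.09e-06). Replicate 1 of BFC012 was the highest of its group for Ccl7 and the lowest for Ccl9, and in neither gene did the lines overlap. Smaller differences were found for Ccl8 (0.50), Ccl2 (0.46) and Ccl20 (-0.46), and Ccl2 did not pass when the arrays of the set were fitted alone (adjusted p = 0.158). Leaving out 1 array ended the call for Ccl8 without BFC012 replicate 1 (0.39, adjusted p = 0.0502) and for Ccl2 without AFT024 replicate 3 or BFC012 replicate 2 or 3 (adjusted p of 0.0661 to 0.176).

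Cxcl5, which attracts neutrophils through CXCR2, showed the widest gap. It read 8.98, 9.12 and 9.24 in AFT024 and 5.07, 4.87 and 5.16 in BFC012 and was 16.9-fold higher (log2 difference 4.08, SE 0.18, adjusted p = 4.70e-19). Cx3cl1 encodes fractalkine, a chemokine anchored in the membrane. Its signals were 9.39, 8.75 and 9.27 against 7.64, 7.23 and 7.20, so that it was 3.44-fold higher (log2 difference 1.78, SE 0.15, adjusted p = 1.19e-11). Cxcl15 ran the other way, at 4.45, 4.34 and 4.59 against 6.49, 4.77 and 5.30, and was 2.08-fold lower (log2 difference -1.06, SE 0.27, adjusted p = 0.00233). BFC012 replicate 1 was the highest Cxcl15 array, and without it the difference was -0.58 with an adjusted p of 0.0723.

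Il15, a cytokine that sustains natural killer and memory T cells, read 7.64, 7.07 and 6.25 in AFT024 and 4.90, 4.88 and 4.73 in BFC012. It was 4.45-fold higher (log2 difference 2.15, SE 0.20, adjusted p = 8.76e-11). Il34, a ligand of the CSF1 receptor, read 7.93, 7.80 and 7.73 against 6.53, 6.28 and 6.66 and was 2.52-fold higher (log2 difference 1.33, SE 0.16, adjusted p = 2.28e-08). Il33, an alarmin stored in the nucleus, was lower by a difference of -0.55. Among NF-kB response genes, Birc3 read 8.75, 8.91 and 8.74 against 7.57, 7.43 and 7.60 and was 2.4-fold higher (log2 difference 1.27, SE 0.10, adjusted p = 6.09e-13). Tnfaip3, which encodes the ubiquitin-editing inhibitor A20, moved the opposite way. Its signals were 7.83, 7.80 and 7.89 against 8.98, 9.03 and 9.13, and it was 2.31-fold lower (log2 difference -1.21, SE 0.11, adjusted p = 1.70e-10). Nfkbia differed by 0.42 with overlapping groups, and did not pass in the fit of the set alone (adjusted p = 0.0963). A call was also missing for Nfkbia without BFC012 replicate 2 (0.29, adjusted p = 0.121) or BFC012 replicate 3 (0.36, adjusted p = 0.0544).

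**Figure D2:**
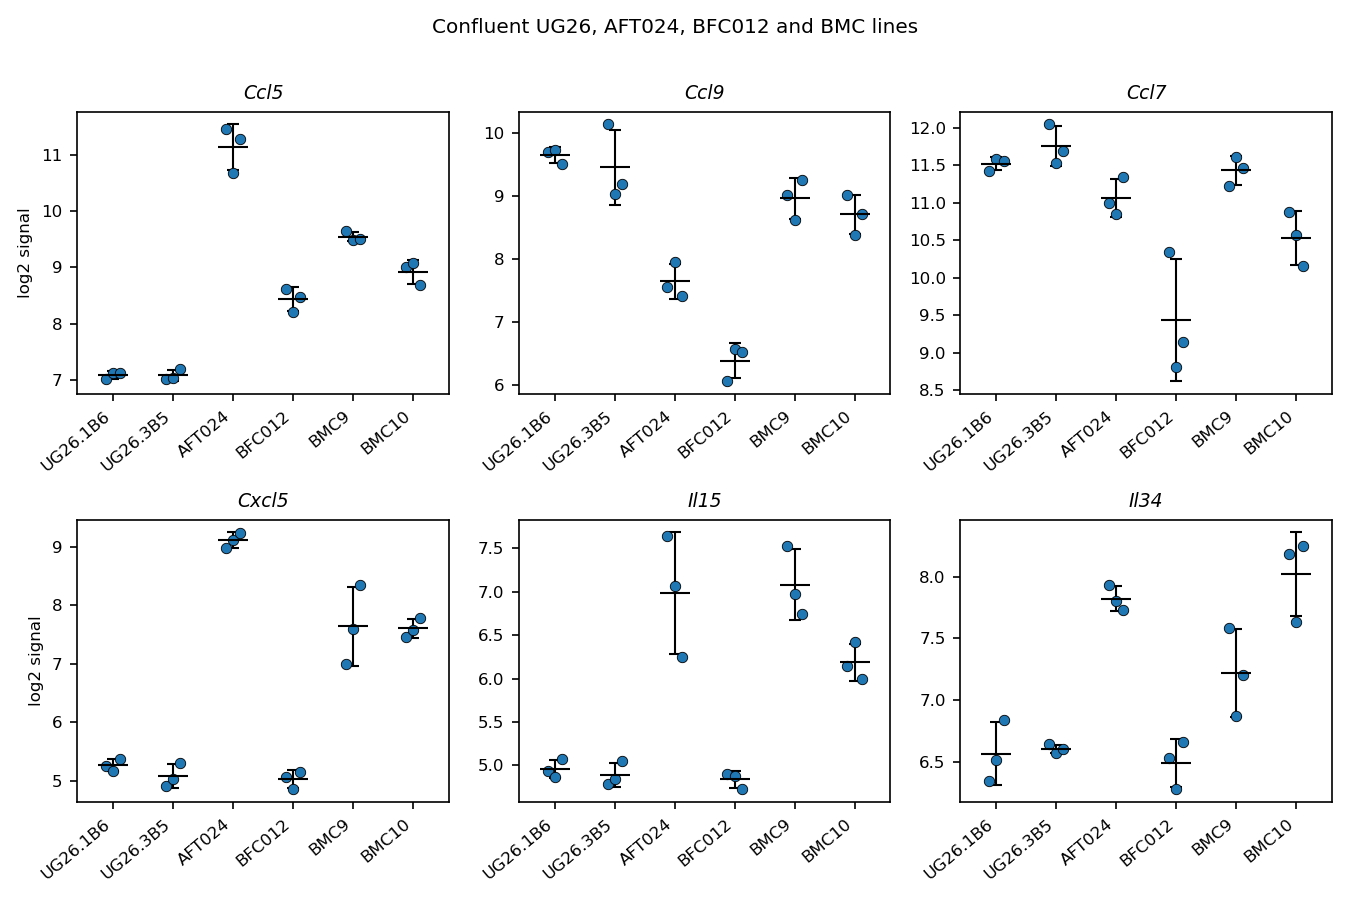
Log2 signal (vertical axis) of 6 genes on the 3 arrays (points) of each of 6 confluent lines (horizontal axis), with the mean and SD of each line as a bar. Cxcl5 and Ccl5 are highest in AFT024, at 8.98 to 9.24 and 10.68 to 11.45, and Ccl9 is highest in the UG26 clones.

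The same 2 FL clones were read again as sorted cells after 4 days, on arrays that share nothing with the confluent ones. In cells cultured without KLS, 8 of the 38 genes were higher in AFT024 and 0 lower, against 7.32% of all genes in either direction. At an unadjusted p under 0.05 there were 12 higher, against 8.88% of all genes, and 3 lower, against 12.4%. With KLS, 6 genes were higher and 3 lower, against 11.6% of all genes in either direction and 5.52% lower. Of the 15 genes that passed in the confluent pair, 13 (86.7%) kept their sign in both sorted comparisons, against 77.2% of all genes that passed there. Only Ccl5, Cxcl5 and Il15 (20.0%, against 15.1%) passed in all 3.

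Without KLS, sorted AFT024 read 9.42, 10.82 and 10.84 for Ccl5 and sorted BFC012 6.94, 6.88 and 6.74, so that Ccl5 was 11.4-fold higher (log2 difference 3.51, SE 0.60, adjusted p = 0.00546). AFT024 replicate 1, a low array here, still lay above every BFC012 array. Ccl2, the main ligand of CCR2, read 10.17, 9.03 and 9.41 against 8.27, 7.25 and 8.22 and was 3.08-fold higher (log2 difference 1.62, SE 0.32, adjusted p = 0.0111). For Ccl7 the signals were 8.17, 7.65 and 8.03 against 6.39, 6.76 and 7.10, and it was 2.3-fold higher (log2 difference 1.20, SE 0.22, adjusted p = 0.00784). Cxcl5 read 6.30, 6.51 and 6.38 against 4.05, 3.96 and 4.10 and was 5.13-fold higher (log2 difference 2.36, SE 0.47, adjusted p = 0.012). Cxcl1, another CXCR2 ligand, read 7.29, 7.32 and 8.15 against 6.54, 6.12 and 6.70 and was 2.19-fold higher (log2 difference 1.13, SE 0.21, adjusted p = 0.0088). For Cx3cl1 they were 6.12, 6.74 and 6.69 against 5.85, 5.46 and 5.70, and it was 1.79-fold higher (log2 difference 0.84, SE 0.17, adjusted p = 0.0111).

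Il15 in these sorted cells read 5.12, 7.04 and 6.78 against 4.18, 4.37 and 3.78 and was 4.61-fold higher (log2 difference 2.21, SE 0.39, adjusted p = 0.00695). Birc3 read 7.05, 7.41 and 7.10 against 5.42, 6.23 and 5.82 and was 2.57-fold higher (log2 difference 1.36, SE 0.23, adjusted p = 0.00525). Groups did not overlap for any of the 8 genes (7.31% of all genes passed without overlap), and 7 differed by at least 2-fold, against 2.18% of all genes. Cxcl15 and Il33 did not pass, with differences of -3.79 (adjusted p = 0.115) and -2.10 (adjusted p = 0.117). BFC012 replicate 1 read 3.68 for Cxcl15 and 4.72 for Il33, while the other 2 arrays of its group read 10.14 and 10.01 for Cxcl15 and 8.14 and 8.25 for Il33. With the replicate number as a block, Il34 also passed as higher (difference 0.38, adjusted p = 0.0311). No call was left for Cx3cl1 without AFT024-KLS replicate 2 or 3 or BFC012-KLS replicate 2 (adjusted p of 0.051 to 0.0536). Leaving out only replicate 1 of BFC012, Cxcl15 (log2 difference -5.92, SE 0.29, adjusted p = 1.74e-06) and Il33 (log2 difference -3.26, SE 0.23, adjusted p = 2.43e-05) passed as lower, with Ccl17 and Tslp added to the higher genes. Without the 4 arrays numbered 1, 10 genes were higher and 3 lower, against 19.3% of all genes. Cxcl15 (log2 difference -5.62, SE 0.13, adjusted p = 1.41e-09) and Il33 (log2 difference -3.16, SE 0.17, adjusted p = 4.08e-07) again passed, together with Ccl25 among the lower and Ccl17 and Tslp among the higher genes.

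With KLS, Ccl5 read 7.22, 9.91 and 9.69 in AFT024 and 6.94, 6.77 and 6.83 in BFC012, and was 4.28-fold higher (log2 difference 2.10, SE 0.60, adjusted p = 0.044). Ccl9 read 5.77, 6.68 and 6.44 against 4.98, 4.81 and 5.22 and was 2.45-fold higher (log2 difference 1.29, SE 0.23, adjusted p = 0.00476). Ccl8 read 4.20, 4.43 and 4.60 against 3.80, 4.04 and 3.97 and was 1.39-fold higher (log2 difference 0.47, SE 0.12, adjusted p = 0.0238). Its means were dim, at percentiles 21.2 in AFT024 and 13.6 in BFC012 among all genes. Cxcl5 signals of 5.15, 7.61 and 7.20 against 4.08, 3.81 and 4.08 made it 6.32-fold higher (log2 difference 2.66, SE 0.47, adjusted p = 0.00394). Replicate 1 of AFT024 was the lowest array of its group for Ccl5, Ccl9, Ccl8 and Cxcl5. Cxcl1 read 7.99, 8.01 and 7.87 against 6.76, 6.57 and 6.76 and was 2.4-fold higher (log2 difference 1.26, SE 0.21, adjusted p = 0.00299). Il15 read 5.89, 6.23 and 5.96 against 4.14, 3.86 and 4.22 and was 3.87-fold higher (log2 difference 1.95, SE 0.39, adjusted p = 0.00826). The call was lost for Ccl5 without AFT024+KLS replicate 2 or 3 or BFC012+KLS replicate 1, 2 or 3 (adjusted p of 0.111 to 0.166), with differences of 1.61 to 2.14, and for Ccl8 without AFT024+KLS replicate 2 or 3 or BFC012+KLS replicate 1 or 3 (adjusted p of 0.0594 to 0.101), with differences of 0.38 to 0.49.

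The 3 lower genes of this comparison were all NF-kB response genes. Tnfaip3 read 7.00, 6.72 and 6.68 in AFT024 with KLS and 7.28, 8.13 and 8.31 in BFC012 with KLS, and was 2.15-fold lower (log2 difference -1.11, SE 0.23, adjusted p = 0.0093). Sod2, the mitochondrial superoxide dismutase, read 7.16, 7.09 and 7.52 against 8.05, 8.13 and 8.19 and was 1.83-fold lower (log2 difference -0.87, SE 0.19, adjusted p = 0.0143). Relb, a subunit of the alternative NF-kB pathway, read 5.26, 5.32 and 5.71 against 5.95, 6.00 and 5.93 and was 1.44-fold lower (log2 difference -0.53, SE 0.13, adjusted p = 0.0198). Leaving out 1 array ended the call for Relb without AFT024+KLS replicate 1 or 2 or BFC012+KLS replicate 1, 2 or 3 (adjusted p of 0.0529 to 0.0794) and for Sod2 without AFT024+KLS replicate 2 (-0.79, adjusted p = 0.0595) or BFC012+KLS replicate 3 (-0.84, adjusted p = 0.0537). Without the arrays numbered 1, 8 genes were higher and 7 lower, against 23.8% of all genes, and the lower genes then also held Nfkbia, Cxcl15 (log2 difference -2.78, SE 0.13, adjusted p = 1.66e-07), Il33 (log2 difference -2.65, SE 0.17, adjusted p = 1.42e-06) and Il1a. On all arrays neither passed, Cxcl15 (log2 difference -3.00, SE 1.31, adjusted p = 0.185) nor Il33 (log2 difference -2.39, SE 0.73, adjusted p = 0.0576).

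**Figure D3:**
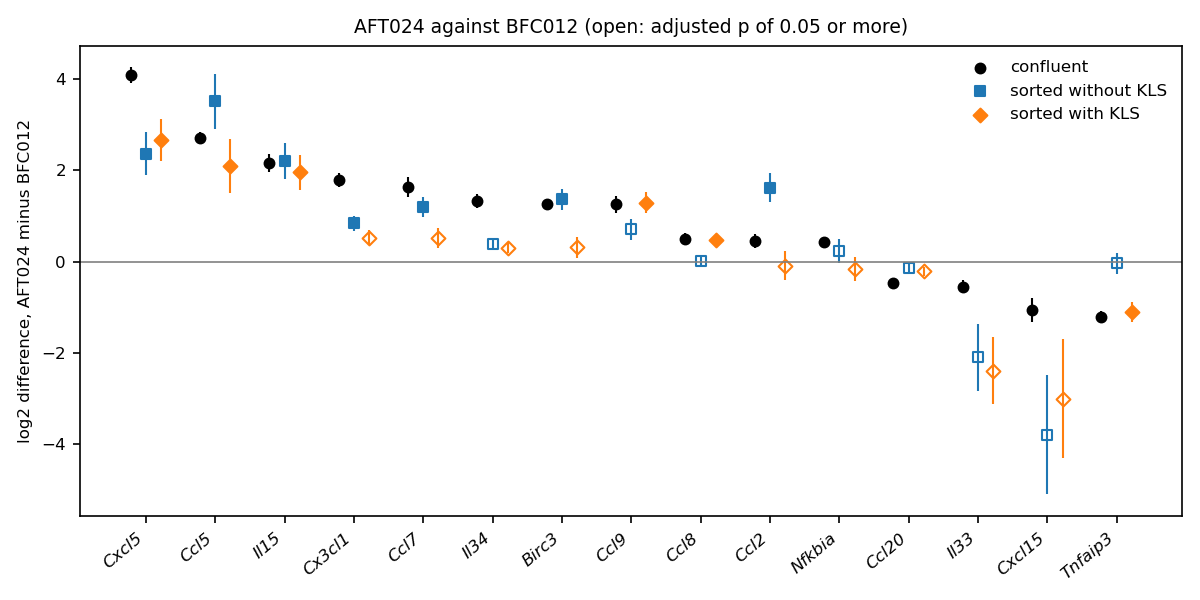
Log2 difference, AFT024 minus BFC012, with its SE (bars), of the 15 genes that passed in the confluent pair, in confluent cells and in sorted cells without and with KLS; filled symbols passed at an adjusted p under 0.05. Ccl5, Cxcl5 and Il15 pass in all 3, at 1.95 or more, while Cxcl15 and Il33 have the widest SE in sorted cells.

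In the BM pair, the supportive BMC9 was compared with the less-supportive BMC10. BMC9 had 6 genes higher and 5 lower, against 15.5% of all genes tested, and no difference reached 2-fold. The higher genes were chemokines and cytokines, and the lower ones held 3 of the 7 NF-kB response genes. Ccl7 read 11.23, 11.61 and 11.47 in BMC9 and 10.88, 10.57 and 10.16 in BMC10 and was 1.86-fold higher (log2 difference 0.90, SE 0.21, adjusted p = 0.00218). Ccl5 read 9.64, 9.49 and 9.50 against 9.01, 9.07 and 8.68 and was 1.54-fold higher (log2 difference 0.63, SE 0.13, adjusted p = 3.55e-04). All BMC9 arrays lay above all BMC10 arrays for both CC chemokines. Il15 read 7.53, 6.98 and 6.74 against 6.14, 6.42 and 6.00 and was 1.86-fold higher (log2 difference 0.90, SE 0.20, adjusted p = 0.00124). Il1rn, which encodes the antagonist of the interleukin-1 receptor, read 7.14, 6.57 and 6.28 against 6.20, 6.04 and 5.93 and was 1.52-fold higher (log2 difference 0.61, SE 0.13, adjusted p = 8.56e-04).

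Il34 ran the other way, at 7.58, 6.87 and 7.20 in BMC9 and 8.18, 7.63 and 8.25 in BMC10, and so 1.75-fold lower (log2 difference -0.80, SE 0.16, adjusted p = 2.97e-04). Birc3 read 7.36, 7.18 and 7.07 against 7.93, 8.04 and 8.17 and was 1.79-fold lower (log2 difference -0.84, SE 0.10, adjusted p = 2.49e-08). Nfkb2, the precursor of the alternative NF-kB pathway, read 9.86, 9.70 and 9.90 against 10.38, 10.49 and 10.84 and was 1.69-fold lower (log2 difference -0.75, SE 0.10, adjusted p = 3.41e-07). Every BMC10 array lay above every BMC9 array for both of these NF-kB response genes. Tnfaip3 read 8.17, 8.15 and 8.26 against 8.66, 8.72 and 8.50 and was 1.35-fold lower (log2 difference -0.43, SE 0.11, adjusted p = 0.0066). Tslp, a cytokine that acts on dendritic cells, read 4.78, 4.58 and 4.48 against 4.97, 5.20 and 5.01 and was 1.36-fold lower (log2 difference -0.44, SE 0.12, adjusted p = 0.00855). Its means were dim, at percentiles 9.2 in BMC9 and 14.7 in BMC10. Groups did not overlap for these 9 genes, against 13.8% of all genes that passed without overlap. Ccl2 (0.46) and Cxcl16 (0.28) passed with overlapping groups. Fitted on the arrays of the set alone, Ccl2, Ccl7, Cxcl16 and Tnfaip3 did not pass (adjusted p of 0.0604 to 0.222). Calls were also lost for Tslp without BMC9 replicate 3 (-0.38, adjusted p = 0.0577) or BMC10 replicate 2 (-0.37, adjusted p = 0.0628), for Ccl2 without BMC9 replicate 3 or BMC10 replicate 2 or 3 (adjusted p of 0.137 to 0.281) and for Cxcl16 without BMC9 replicate 1 or 2 or BMC10 replicate 2 or 3 (adjusted p of 0.0551 to 0.319).

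A pair of other FL clones, 2012 (supportive) and AFT011 (non-supportive), differed in 14 of the 38 genes, against 27.6% of all genes tested. In 2012, 8 were higher and 6 lower, and 3 of the 14 differed by at least 2-fold, against 3.58% of all genes. None of the groups overlapped, and 25.2% of all genes passed without overlap. Ccl7 read 10.99, 10.99 and 11.09 in 2012 and 9.97, 10.17 and 9.90 in AFT011 and was 2.01-fold higher (log2 difference 1.01, SE 0.21, adjusted p = 3.20e-04). Ccl9 read 7.36, 7.36 and 7.45 against 6.85, 6.80 and 6.72 and was 1.52-fold higher (log2 difference 0.60, SE 0.18, adjusted p = 0.0123). Cxcl1 read 8.79, 8.36 and 8.40 against 7.49, 7.62 and 7.17 and was 2.12-fold higher (log2 difference 1.09, SE 0.14, adjusted p = 8.50e-08). All 3 were chemokines with every 2012 array above every AFT011 array. Cx3cl1 read 9.49, 9.39 and 9.35 against 8.53, 8.53 and 8.56 and was 1.83-fold higher (log2 difference 0.87, SE 0.15, adjusted p = 2.82e-05). Cxcl16, a chemokine that also acts as a scavenger receptor, read 6.08, 6.01 and 5.82 against 6.79, 6.44 and 6.47 and was 1.51-fold lower (log2 difference -0.60, SE 0.10, adjusted p = 1.10e-05).

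Cytokines moved both ways between 2012 and AFT011. Il34 read 8.03, 7.78 and 7.49 against 6.66, 6.93 and 6.76 and was 1.98-fold higher (log2 difference 0.98, SE 0.16, adjusted p = 8.23e-06). Il33 read 5.93, 5.56 and 5.45 against 7.35, 6.78 and 7.00 and was 2.64-fold lower (log2 difference -1.40, SE 0.14, adjusted p = 8.21e-10). Il15 read 5.46, 5.06 and 5.46 against 5.81, 5.97 and 6.11 and was 1.56-fold lower (log2 difference -0.64, SE 0.20, adjusted p = 0.0145). Tnfaip3 was lower in the supportive clone here too, at 8.32, 8.34 and 8.32 against 9.34, 9.02 and 9.29, and so 1.86-fold lower (log2 difference -0.89, SE 0.11, adjusted p = 1.57e-07). Ccl2 read 11.57, 11.46 and 11.63 against 12.02, 12.02 and 11.97 and was 1.36-fold lower (log2 difference -0.45, SE 0.16, adjusted p = 0.0303). The other genes that passed were Ccl17 (-0.43), Il1a (0.26), Tnf (0.26) and Relb (0.21). Calls were lost for Il15 without 2012 replicate 2 (-0.51, adjusted p = 0.0805) or AFT011 replicate 3 (-0.57, adjusted p = 0.0727), for Ccl2 without 2012 replicate 1 or 2 or AFT011 replicate 1, 2 or 3 (adjusted p of 0.0579 to 0.0846), for Il1a without 2012 replicate 1, 2 or 3 or AFT011 replicate 1, 2 or 3 (adjusted p of 0.0601 to 0.142), for Relb without 2012 replicate 1 or 3 or AFT011 replicate 1, 2 or 3 (adjusted p of 0.0662 to 0.274) and for Tnf without 2012 replicate 2 or AFT011 replicate 3 (adjusted p of 0.0592 to 0.0839). Of 21 leukocyte markers, 1 was higher and 3 lower in 2012, the lower ones being Cd34 (-5.08), Lcp1 (-1.56) and Cd68 (-0.71), and the mean of the list was 5.90 to 6.12 on 2012 arrays and 6.17 to 6.31 on AFT011 arrays.

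OP9 (supportive, fetal calvaria) and BFC (non-supportive, FL) were normalized together, and tissue, strain and support differ together between them, as does temperature for OP9 replicates 1 and 2 (37 °C, with all BFC arrays at 33 °C), so these cannot be told apart. OP9 had 13 genes higher and 5 lower, against 34.4% of all genes tested, and the groups overlapped in none of the 18 (32.6% of all genes passed without overlap). A 2-fold difference was reached by 7, against 6.18% of all genes. Ccl9 read 7.84, 7.92 and 7.93 in OP9 and 4.14, 4.01 and 4.05 in BFC and was 14.2-fold higher (log2 difference 3.83, SE 0.18, adjusted p = 3.17e-18). Ccl7 read 7.22, 6.98 and 7.10 against 5.77, 5.72 and 5.62 and was 2.64-fold higher (log2 difference 1.40, SE 0.21, adjusted p = 1.41e-06). Ccl2 was the reverse of Ccl7, at 7.07, 7.00 and 7.05 against 8.92, 9.10 and 8.97, and so 3.87-fold lower (log2 difference -1.95, SE 0.16, adjusted p = 2.40e-12). Ccl2 and Ccl7 are both ligands of the receptor CCR2. Cxcl5 read 4.75, 4.82 and 4.82 against 3.69, 4.10 and 3.78 and was 1.92-fold higher (log2 difference 0.94, SE 0.18, adjusted p = 5.98e-05). Cxcl15 read 2.88, 3.94 and 3.63 against 5.95, 6.07 and 5.98 and was 5.74-fold lower (log2 difference -2.52, SE 0.27, adjusted p = 1.82e-09).

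Among cytokines, Il1rn read 8.77, 8.81 and 8.45 in OP9 and 4.86, 5.11 and 4.92 in BFC and was 13.1-fold higher (log2 difference 3.71, SE 0.13, adjusted p = 8.64e-22). Il15 read 5.20, 5.62 and 5.51 against 3.20, 3.25 and 3.08 and was 4.81-fold higher (log2 difference 2.27, SE 0.20, adjusted p = 1.86e-11). Il6, a cytokine of acute inflammation, read 3.88, 3.67 and 4.39 against 3.03, 2.97 and 3.17 and was 1.89-fold higher (log2 difference 0.92, SE 0.15, adjusted p = 8.66e-06). OP9 replicate 3, the array grown at 33 °C, was the highest Il6 array. Il6 was dim in both lines, with means at percentiles 22.8 in OP9 and 8.7 in BFC among all genes. Il33 read 4.50, 4.35 and 4.28 against 5.99, 5.45 and 5.65 and was 2.5-fold lower (log2 difference -1.32, SE 0.14, adjusted p = 1.40e-09). Lif, also a cytokine of the Il6 family, read 4.45, 4.35 and 4.54 against 5.27, 5.33 and 5.47 and was 1.87-fold lower (log2 difference -0.91, SE 0.21, adjusted p = 6.30e-04). The other genes that passed were Cxcl1 (0.77), Ccl17 (0.54), Cx3cl1 (0.50), Birc3 (0.50), Il34 (0.48), Icam1 (0.38), Il1b (0.37) and Ccl25 (-0.76). The call ended for Cx3cl1 without OP9 replicate 1 or BFC replicate 1 (adjusted p of 0.0691 to 0.0758), for Il34 without OP9 replicate 3 or BFC replicate 1 or 2 (adjusted p of 0.0681 to 0.0873) and for Il1b without BFC replicate 3 (0.22, adjusted p = 0.0927). Of 21 leukocyte markers, 3 were higher and 2 lower in OP9, with the widest difference in Cd34 (-2.99), and the mean of the list was 3.99 to 4.07 on OP9 arrays and 4.10 to 4.15 on BFC arrays.

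AM14-1C4 and AM30-3F4 are both supportive AGM clones, so this pair shows how far the genes vary within 1 label. AM14-1C4 had 11 genes higher and 5 lower, against 31.6% of all genes tested, and 10 of the 16 differed by at least 2-fold, against 5.96% of all genes. No groups overlapped among the 16 (31.5% of all genes passed without overlap). Ccl5 read 12.13, 12.26 and 12.17 in AM14-1C4 and 7.73, 7.56 and 7.61 in AM30-3F4 and was 23.5-fold higher (log2 difference 4.55, SE 0.13, adjusted p = 1.84e-24). Ccl7 read 12.05, 11.95 and 11.84 against 8.77, 8.68 and 8.74 and was 9.3-fold higher (log2 difference 3.22, SE 0.21, adjusted p = 1.75e-14). Ccl2 read 12.53, 12.51 and 12.51 against 9.99, 9.89 and 9.89 and was 6.03-fold higher (log2 difference 2.59, SE 0.16, adjusted p = 2.43e-15). Thus 3 CC chemokines of monocytes and T cells were higher together, while Ccl9 (-0.66) and Ccl17 (-0.34) were lower.

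Cxcl1, Cxcl2 and Cxcl5, which act on neutrophils through CXCR2, were all higher in AM14-1C4. Cxcl5 read 7.74, 8.03 and 7.82 against 5.74, 5.78 and 6.02 and was 4.05-fold higher (log2 difference 2.02, SE 0.18, adjusted p = 3.52e-11). Cxcl1 read 9.20, 9.33 and 9.31 against 7.90, 7.99 and 7.94 and was 2.53-fold higher (log2 difference 1.34, SE 0.14, adjusted p = 5.89e-10). Cxcl2, whose promoter shares its kappaB run with Cxcl1 (shown above), differed by 0.65 (adjusted p = 2.68e-06) and passed in no other pair. Cxcl2 was dim in both lines, since even its mean in AM14-1C4 (5.98), the highest of the set, lay below the first quartile of 6.01. Cx3cl1 read 10.23, 10.30 and 10.08 against 8.07, 7.90 and 7.92 and was 4.71-fold higher (log2 difference 2.24, SE 0.15, adjusted p = 4.19e-14).

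Il6 read 9.06, 8.92 and 9.33 in AM14-1C4 and 6.27, 5.76 and 5.61 in AM30-3F4 and was 9.35-fold higher (log2 difference 3.22, SE 0.15, adjusted p = 5.58e-18). Lif read 8.22, 8.15 and 8.04 against 6.37, 6.72 and 6.66 and was 2.93-fold higher (log2 difference 1.55, SE 0.21, adjusted p = 2.08e-07), and Il11, of the same family, differed by 0.71. Il33 read 8.46, 8.58 and 8.42 against 5.71, 5.83 and 5.87 and was 6.41-fold higher (log2 difference 2.68, SE 0.14, adjusted p = 5.20e-17). Tnfaip3 was lower, at 7.11, 7.14 and 6.98 against 8.33, 8.33 and 8.19, and so 2.31-fold lower (log2 difference -1.21, SE 0.11, adjusted p = 1.32e-10). Il1a (-0.42) and Sod2 (-0.32) were the other lower genes, and Nfkbia did not pass (log2 difference 0.28, SE 0.13, adjusted p = 0.0882) although its groups did not overlap. Nfkbia passed when the arrays of the set were fitted alone (adjusted p = 2.24e-04) and after repeated quantile normalization (0.0362). Among the lower genes, calls were lost for Ccl17 without AM14-1C4 replicate 1 or 3 or AM30-3F4 replicate 1, 2 or 3 (adjusted p of 0.0593 to 0.128) and for Sod2 without AM14-1C4 replicate 2 (-0.28, adjusted p = 0.0506) or AM30-3F4 replicate 1 (-0.27, adjusted p = 0.0549).

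Of the 21 leukocyte markers, 4 were higher and 1 lower in AM14-1C4, among them Cd34 (4.41), Lyz2 (4.00), Itgb2 (1.15) and Lcp1 (-1.79). The mean of the list was 6.52 to 6.59 on AM14-1C4 arrays and 6.11 to 6.15 on AM30-3F4 arrays. Ptprc, which encodes CD45, read 5.51 ± 0.07 in AM14-1C4 and 5.58 ± 0.08 in AM30-3F4 (SD, n = 3). Ptprc means were 5.47 to 5.58 in the 5 lines of this set. They were 3.46 in OP9 and 3.38 in BFC, which were normalized apart and cannot be compared with these lines. The part of leukocyte markers in the results of any pair was not tested.

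**Figure D4:**
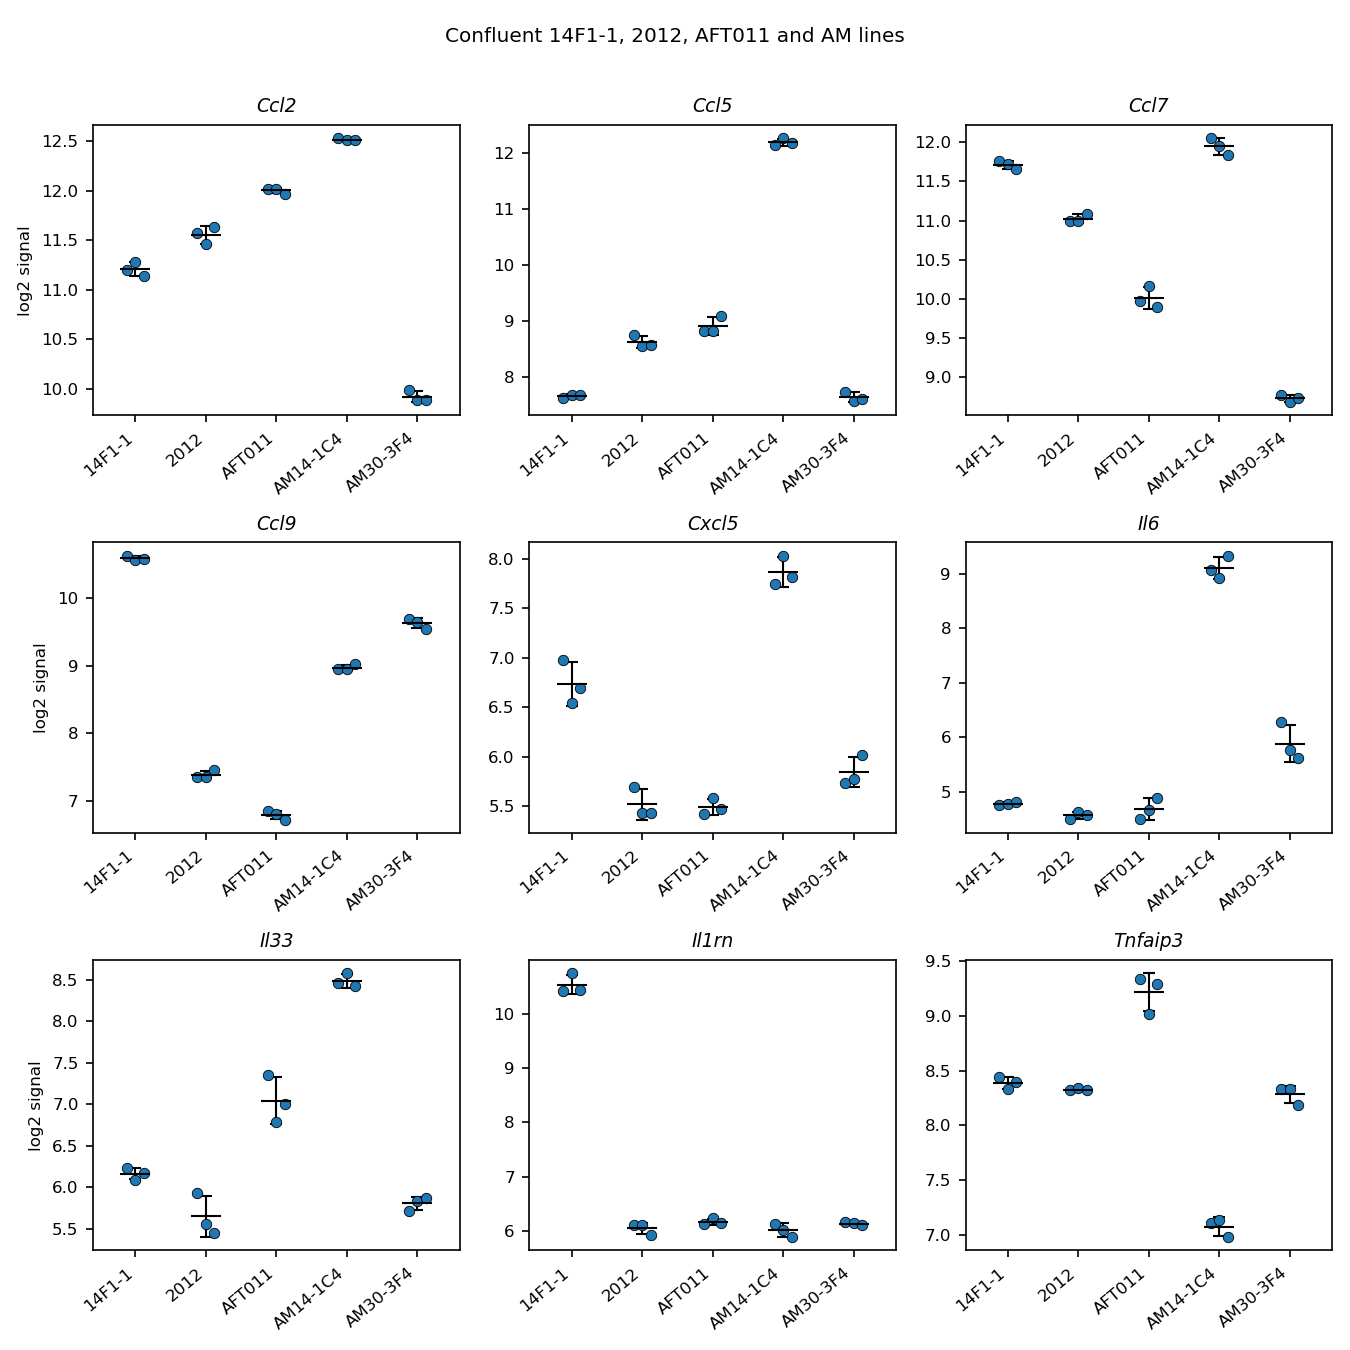
Log2 signal (vertical axis) of 9 genes on the 3 arrays (points) of 14F1-1, 2012, AFT011, AM14-1C4 and AM30-3F4 (horizontal axis), with the mean and SD of each line as a bar. AM14-1C4 lies above AM30-3F4 for Ccl2, Ccl5, Ccl7, Cxcl5, Il6 and Il33 and below it for Ccl9 and Tnfaip3, and Il1rn is high in 14F1-1 (10.43 to 10.75).

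14F1-1 (BM, BALB/c, 37 °C) and 2012 (FL, C57BL/6, 33 °C) are both supportive. Tissue, strain and temperature differ together between them and cannot be told apart, and the 2012 arrays are also those of the comparison with AFT011. 14F1-1 had 7 genes higher and 11 lower, against 36.6% of all genes tested, with no overlap among the 18 (35.9% of all genes passed without overlap). A 2-fold difference was reached by 5, against 7.40% of all genes. Ccl9 read 10.63, 10.57 and 10.58 in 14F1-1 and 7.36, 7.36 and 7.45 in 2012 and was 9.23-fold higher (log2 difference 3.21, SE 0.18, adjusted p = 2.88e-16). Ccl25, a ligand of CCR9 in thymus and gut, read 7.36, 7.59 and 7.57 against 8.61, 8.76 and 8.83 and was 2.34-fold lower (log2 difference -1.22, SE 0.13, adjusted p = 1.22e-09). Ccl5 read 7.63, 7.68 and 7.67 against 8.75, 8.55 and 8.57 and was 1.95-fold lower (log2 difference -0.96, SE 0.13, adjusted p = 8.33e-08). CC chemokines thus differed in both directions. Ccl7 read 11.76, 11.72 and 11.66 against 10.99, 10.99 and 11.09 and was 1.61-fold higher (log2 difference 0.69, SE 0.21, adjusted p = 0.00865). Cxcl5 read 6.98, 6.54 and 6.69 against 5.70, 5.43 and 5.43 and was 2.33-fold higher (log2 difference 1.22, SE 0.18, adjusted p = 8.50e-07). Cx3cl1 read 8.62, 8.45 and 8.62 against 9.49, 9.39 and 9.35 and was 1.8-fold lower (log2 difference -0.85, SE 0.15, adjusted p = 1.78e-05).

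Il1rn had the widest gap of this pair, at 10.43, 10.75 and 10.44 in 14F1-1 and 6.10, 6.11 and 5.93 in 2012, and was 22.5-fold higher (log2 difference 4.49, SE 0.13, adjusted p = 2.74e-24). Il15 read 6.55, 6.70 and 6.67 against 5.46, 5.06 and 5.46 and was 2.49-fold higher (log2 difference 1.32, SE 0.20, adjusted p = 1.24e-06). Il34 read 6.91, 6.82 and 6.85 against 8.03, 7.78 and 7.49 and was 1.87-fold lower (log2 difference -0.91, SE 0.16, adjusted p = 1.39e-05). The receptor antagonist and Il15 were higher in 14F1-1, and Il34 was higher in 2012. Cxcl1 read 8.08, 7.93 and 7.96 against 8.79, 8.36 and 8.40 and was 1.44-fold lower (log2 difference -0.53, SE 0.14, adjusted p = 0.00183). Both members of the alternative NF-kB pathway were lower, Relb by a difference of -0.46 and Nfkb2 by one of -0.40. Birc3 (-0.29), Cxcl16 (-0.44), Tslp (-0.45) and Ccl17 (-0.40) were lower as well, and Sod2 (0.51) and Il33 (0.52) higher. Leave-one-out fits ended the call for Birc3 without 14F1-1 replicate 1 or 2012 replicate 1 (adjusted p of 0.0618 to 0.0725) and for Ccl17 without 2012 replicate 1 (-0.35, adjusted p = 0.0563). Of 21 leukocyte markers, 3 were higher and 0 lower in 14F1-1, namely Cd53 (1.44), Lcp1 (0.52) and Lyz2 (0.48), and the mean of the list was 6.04 to 6.07 on 14F1-1 arrays and 5.90 to 6.12 on 2012 arrays.

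Of the remaining confluent pairs, the UG26 pair had 0 of 21 leukocyte markers higher and 0 lower. In confluent AFT024 against BFC012, 1 of 21 was higher and 3 lower, at most 0.46 apart, against 28.5% of all genes in either direction. BMC9 had 2 of 21 higher, Csf1r (1.00) and Cd34 (0.74), and 0 lower, against 15.5% of all genes in either direction.

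Seen by gene across the 7 confluent pairs, Ccl7 passed in 6 and was higher in the first-named line each time. Tnfaip3 passed in 4, and it was lower in the first-named line each time. Il15 passed in 5, Ccl9 in 5 and Cx3cl1 in 5, with 1, 1 and 1 of those lower. These pairs do not all contrast support, and the 2012 arrays enter 2 of them. Both lines are supportive in the AM pair and in 14F1-1 against 2012, so which is named first is arbitrary there. In the BM pair, Ccl7 and Tnfaip3 did not pass in limma when the set was fitted alone (adjusted p of 0.0604 and 0.0676). Per pair, 8.56% to 36.6% of all genes passed. How many genes pass this often with 1 sign was not computed, so these counts have no background.

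The presence of KLS cells was compared within each sorted clone. In AFT024, 0 of the 38 genes passed in limma, against 0.351% of all genes (0.296% higher and 0.0552% lower), and 3 were higher (against 5.50%) and 1 lower (against 3.76%) at an unadjusted p under 0.05. In BFC012, Tnfaip3 alone passed, against 0.883% of all genes, and 6 genes were higher (against 4.95%) and 0 lower (against 5.24%) at an unadjusted p under 0.05. Tnfaip3 read 6.52, 6.39 and 6.84 in BFC012 without KLS and 7.28, 8.13 and 8.31 with KLS, and so was 2.5-fold higher (log2 difference 1.32, SE 0.23, adjusted p = 0.0227) with KLS. In AFT024 it read 6.58, 6.47 and 6.60 without and 7.00, 6.72 and 6.68 with KLS. Every BFC012 array with KLS lay above every other sorted array. The call was lost without BFC012 replicate 2 or 3 of either condition, at adjusted p of 0.05003 to 0.116 and differences of 1.12 to 1.45.

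Nfkbia, Sod2 and Birc3 had the same sign in BFC012 without passing. Nfkbia read 6.56, 6.98 and 7.45 without and 7.70, 7.92 and 8.27 with KLS (log2 difference 0.97, SE 0.26, adjusted p = 0.164). Sod2 read 7.70, 7.17 and 7.36 without and 8.05, 8.13 and 8.19 with KLS (log2 difference 0.72, SE 0.19, adjusted p = 0.163). Birc3 read 5.42, 6.23 and 5.82 without and 6.71, 6.78 and 6.09 with KLS (log2 difference 0.70, SE 0.23, adjusted p = 0.272). The groups did not overlap for Nfkbia and Sod2, and 8 of the 38 genes had such groups whatever their p, against 17.3% of all genes. In AFT024, Nfkbia read 7.21, 7.16 and 7.34 without and 8.38, 7.46 and 7.57 with KLS, also without overlap and without passing (adjusted p = 0.556). The remaining NF-kB response genes moved less in BFC012. Means without and with KLS were 7.01 and 7.04 for Nfkb2, 5.82 and 5.96 for Relb, and 5.73 and 5.94 for Icam1. The median difference of the 7 NF-kB response genes, of which 1 passed, was 0.70 in BFC012 (the value of Birc3), against -0.015 over all genes. In AFT024 it was -0.031, against 0.005. Ccl2 differed by 1.08 (adjusted p = 0.198), with groups that did not overlap either. The difference between both clones in their change with KLS was tested as an interaction, in which 0 of the 38 genes passed in limma, against 0.0401% of all genes, and 1 was higher (against 4.64%) and 5 lower (against 3.20%) at an unadjusted p under 0.05.

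Without the 4 sorted arrays numbered 1, which leaves 2 arrays a group and was chosen after seeing the data, more genes passed. In BFC012, 5 were then higher with KLS and 2 lower, against 7.90% of all genes. Those higher were Tnfaip3 (log2 difference 1.61, SE 0.14, adjusted p = 1.03e-04), Sod2 (log2 difference 0.90, SE 0.14, adjusted p = 0.00272), Nfkbia (log2 difference 0.88, SE 0.16, adjusted p = 0.00771), Ccl2 (log2 difference 1.25, SE 0.28, adjusted p = 0.0204) and Tslp (log2 difference 0.64, SE 0.15, adjusted p = 0.0285). Lower were Cxcl15 (log2 difference -3.65, SE 0.13, adjusted p = 1.82e-07) and Il33 (log2 difference -0.65, SE 0.17, adjusted p = 0.038). For Il33 the direction turned, since on all arrays it was higher with KLS without passing (log2 difference 0.27, SE 0.73, adjusted p = 0.955). With only replicate 1 of BFC012 without KLS left out, Cxcl15 was lower as well (log2 difference -3.41, SE 0.29, adjusted p = 4.60e-04). Without KLS, the Cxcl15 arrays numbered 2 and 3 read 10.14 and 10.01, and with KLS they read 6.53 and 6.33.

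On the same arrays, AFT024 with KLS had 4 genes higher and 5 lower, against 6.06% of all genes. Ccl9 (log2 difference 0.99, SE 0.15, adjusted p = 0.00362), Cxcl5 (log2 difference 0.96, SE 0.15, adjusted p = 0.00389), Ccl8 and Ccl25 were higher. Ccl5 (log2 difference -1.03, SE 0.11, adjusted p = 3.95e-04), Il15 (log2 difference -0.82, SE 0.20, adjusted p = 0.0349), Cxcl15, Lif and Cx3cl1 were lower. Ccl5 read 10.82 and 10.84 without KLS on these arrays and 9.91 and 9.69 with KLS, while replicate 1 read 9.42 and 7.22. The interaction then passed for 6 genes, against 2.95% of all genes. Tnfaip3 (log2 difference -1.44, SE 0.20, adjusted p = 0.00537), Tslp and Ccl5 changed less upward or more downward in AFT024 than in BFC012, and Cxcl15 (log2 difference 2.83, SE 0.18, adjusted p = 5.59e-05), Ccl9 and Cxcl5 the reverse.

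The sort kept cells without CD45, and leukocyte markers were read on the same arrays to see what RNA of KLS cells remained. Of 21 leukocyte markers, 0 passed in limma in either clone, with median differences of 0.10 in AFT024 and 0.04 in BFC012. Ptprc read 4.28 to 4.38 as a mean in the 4 sorted groups. Lyz2, a myeloid gene, read 4.32 ± 0.63 with and 3.98 ± 0.06 without KLS in AFT024, and 4.73 ± 0.71 with and 3.91 ± 0.20 without KLS in BFC012 (SD, n = 3). Between AFT024 and BFC012 with KLS, Cd68 was higher (1.19) and Coro1a lower (-0.26). Any part of residual KLS cells in these values was not tested.

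**Figure D5:**
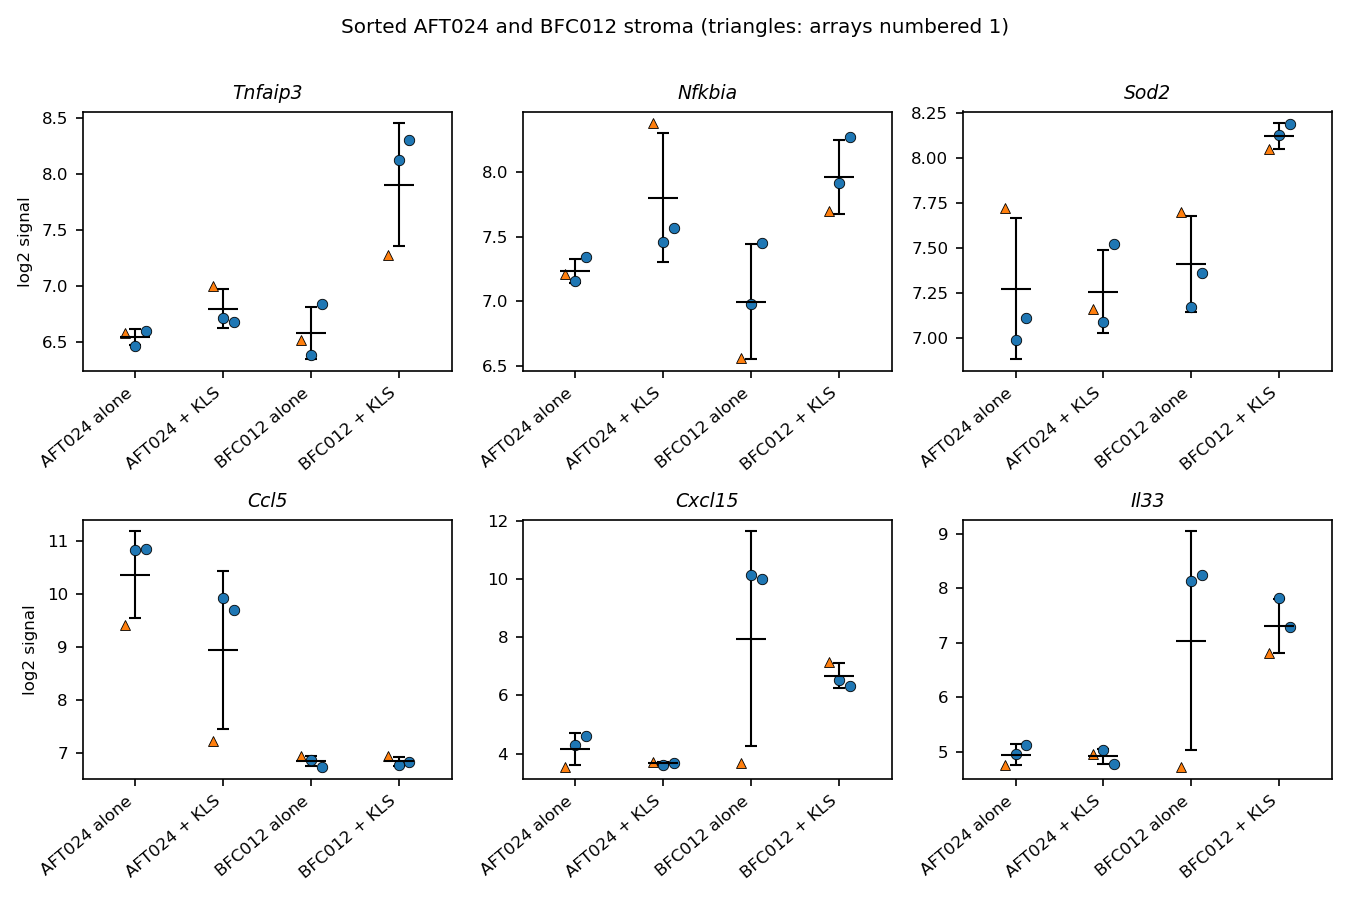
Log2 signal (vertical axis) of 6 genes on each sorted array (points, with triangles for arrays numbered 1) of AFT024 and BFC012 cultured alone or with KLS cells (horizontal axis), with the mean and SD of each group as a bar. Tnfaip3 is highest in BFC012 with KLS (7.28 to 8.31), and the BFC012 array numbered 1 without KLS stands apart for Cxcl15 and Il33.

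Other genes of the pathway were read from lists of chemokines outside the 38 (16 measured), chemokine receptors (22), cytokine receptors (16), NF-kB signalling (42) and other NF-kB targets (25). Between confluent AFT024 and BFC012, 11 signalling genes were higher and 6 lower, and 9 targets were higher and 8 lower, against 15.6% of all genes higher and 12.9% lower. The widest differences were those of Tnfaip6 (-3.08), which encodes a hyaluronan-binding protein, and Plau (2.42), the urokinase. Nod1, a sensor of bacterial peptidoglycan that feeds NF-kB, was lower in AFT024 (-1.57), in both sorted comparisons (-1.30 without and -1.45 with KLS), in 2012 against AFT011 (-1.44), in OP9 against BFC (-1.46) and in BMC9 against BMC10 (-0.64). Nod1 was singled out after its values were seen.

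In the AM pair, 8 targets were higher and 4 lower, and 13 signalling genes were higher and 9 lower, against 15.9% of all genes higher and 15.8% lower. Vcam1, an adhesion molecule for progenitor cells, differed by 3.54, Lcn2, an iron-carrier protein of inflammation, by 2.41, and Bcl3 by 1.73. Mmp13 was among the lower targets (-1.90). Of the 16 chemokines outside the 38, 4 were higher and 0 lower, among them Ppbp (2.77) and Ccl3 (1.30). Tlr4, the endotoxin receptor, was lower (-1.42). In BMC9 against BMC10, 1 signalling gene was higher and 8 lower, against 7.28% and 8.18% of all genes, Traf1 by -0.97, while the receptors Lifr (2.51) and Osmr (2.40) were higher. Between 14F1-1 and 2012, Vcam1 was lower (-3.34) and Csf2rb, the common chain of the Csf2 receptor family, higher (3.43). The UG26 pair had 2 signalling genes higher and 2 lower, and 1 target higher, Junb (0.51), against 4.34% of all genes higher and 4.22% lower.

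With KLS cells, 2 of the 25 other NF-kB targets were higher in BFC012 and 0 lower, against 0.612% of all genes higher and 0.271% lower. They were Saa3, an acute-phase serum amyloid (log2 difference 5.20, SE 0.56, adjusted p = 0.00115), and Lcn2 (log2 difference 4.04, SE 0.33, adjusted p = 2.32e-04). The list was chosen with earlier results of these data known, so its counts against all genes only describe and are no independent evidence. In AFT024, 0 of the 25 passed in either direction, and none of the 42 signalling genes passed in either clone. In AFT024 against BFC012 with KLS, 3 targets were higher and 6 lower, against 6.09% of all genes higher and 5.52% lower. The lower targets held Saa3 (-5.97) and Lcn2 (-3.09), and the higher ones Ptgs2 (2.20) and Plau (2.06). No chemokine receptor passed in a sorted comparison.

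For the 5 genes with the widest range over the 6 lines, the most similar genes by Pearson correlation of line means are given as a description, over 6 points that share arrays. Cxcl5 was followed by Vmn1r43 (r = 0.9994), Zfp358 and Scg5. Ccl5 was followed by Slc31a2 (r = 0.998), Dhx58 and Tmem131l, and Ccl9 by Wdr81 (r = 0.9954), Slc1a4 and Olfml3. Ccl7 was followed by Invs (r = 0.9955), Speg and Akr1c19, and Il15 by Mrgprf (r = 0.9973), Gbp7 and Gm9831.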

How the data were processed

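RNA (100 ng total RNA a sample) had been hybridised to 51 Affymetrix mouse gene 1.0 ST arrays, 3 in each of 17 groups. The deposited values are log2 signals per probe set, for which the submitters' processing notes name RMA and Partek, with no version. They form 4 sets of arrays with different medians, treated here as normalized separately. Of 35556 probe sets, 21789 have 1 gene symbol in GEO's platform annotation, 1621 several and 12146 none, and only those with 1 were named. For each of 19938 genes the probe set with the highest mean was used, which mattered for 1 of the 38 genes described (Ccl25).

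Differences were computed here with limma 3.58.1 in R 4.3.3 (lmFit and eBayes), in 1 fit of the confluent lines and 1 of the sorted groups, which share the spread but not levels. P-values were adjusted by Benjamini-Hochberg over all genes, with a threshold of 0.05, and the code was tested on simulated data. The members and lists were chosen with earlier results of these data known. Full values are given for genes past the threshold without overlap between groups, at most 10 a comparison by size of difference, and at most 4 genes of each other list are named. Replicate numbers are given in the labels. Deviations of same-numbered arrays correlated at 0.327 to 0.535 in the UG26 pair, 0.116 to 0.435 in the BM pair and 0.466 to 0.671 in the sorted pair without KLS. All were above 0.1, the rule by which numbers were taken to pair arrays. Differently numbered arrays reached 0.103, 0.194 and 0.501 in the same pairs, so only in the UG26 pair did all same-numbered values stand apart. No other comparison met the rule. No 2 arrays held identical values. Alternatives were a fit to each set alone, a replicate block, repeated quantile normalization, a filter on dim genes, the mean of all probe sets, a variance trend, other thresholds and leaving out arrays. The number of arrays limits the precision.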

Additional observations from a re-analysis of the deposited data

Results flagged for a closer look

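For 3 genes, the difference between the better and the less supporting clone passed in limma in 2 tissues with opposite signs. They were picked for this, so the test of 1 change against the other, on the same arrays, could hardly fail and adds no support. The share of all genes with opposite calls was not computed. Ccl8 was lower in UG26.1B6 than in UG26.3B5 (-0.67) and higher in AFT024 than in BFC012 (0.50), and the first change minus the second was -1.17 (SE 0.19, adjusted p = 1.49e-05). Ccl8 was dim in all of these lines, with means at percentiles 19.1 to 32.5 among all genes. Il34 was higher in AFT024 than in BFC012 (1.33) and lower in BMC9 than in BMC10 (-0.80), and these changes differed by 2.14 (SE 0.22, adjusted p = 2.18e-09). Birc3 was higher in UG26.1B6 than in UG26.3B5 (0.40) and lower in BMC9 than in BMC10, which differed by 1.24 (SE 0.13, adjusted p = 1.45e-08). Birc3 was also higher in AFT024 than in BFC012 (1.27), and that change differed from the one of the BM pair by 2.11 (SE 0.13, adjusted p = 1.37e-14). Each tissue is represented by 1 pair of clones, so tissue and clone cannot be told apart.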

How the results depend on the processing

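Of the single differences that passed on all arrays, 0 changed sign under any alternative run. Il33 in BFC012 with against without KLS, which did not pass on all arrays (0.27), turned to -0.65 and passed without the sorted arrays numbered 1. Leaving out 1 array ended the call in 82 cases and kept it in 602. Of the same differences, 7 lost their call when each set was fitted alone, 4 after repeated quantile normalization, 1 with the replicate block and 1 with a variance trend. With each set fitted alone, the share of all genes passing fell from 8.56% to 4.15% in the UG26 pair. It also fell in the confluent FL pair (28.5% to 22.6%), the BM pair (15.5% to 9.53%) and OP9 against BFC (34.4% to 33.8%). It rose in 2012 against AFT011 (27.6% to 36.9%), the AM pair (31.6% to 39.1%) and 14F1-1 against 2012 (36.6% to 43.2%). Counts of genes passing moved by over 1.5 times as follows. Fitted on its set alone, the BM pair had 3 genes higher. The replicate block gave 2 genes lower in the UG26 pair, and repeated quantile normalization gave 3. The block added Nfkb2 in the confluent FL pair, Tslp in OP9 against BFC and Il33 in the sorted pair with KLS, comparisons whose numbers share no more than a number, and removed Relb in 2012 against AFT011. The cause of these changes was not tested.

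At an adjusted p under 0.01, 2012 against AFT011 had 4 genes higher and 3 lower (7.58% and 10.6% of all genes), the sorted pair without KLS 5 higher (1.52%), the sorted pair with KLS 1 lower (2.57%), and BFC012 with against without KLS 0 higher (0.246%). With a 2-fold minimum, UG26 and BM pairs had 0 higher and 0 lower (0.547% and 0.461%, and 1.28% and 1.09%, of all genes), the confluent FL pair 2 lower (1.64%), 2012 against AFT011 2 higher and 1 lower (1.54% and 2.04%), OP9 against BFC 4 and 3 (3.79% and 2.39%), the AM pair 1 lower (2.90%), 14F1-1 against 2012 4 and 1 (4.06% and 3.34%), and the sorted pair with KLS 1 lower (1.11%). These thresholds admit fewer genes by construction. Without the sorted arrays numbered 1, the sorted pair without KLS had 3 lower, that with KLS 7 lower, AFT024 with against without KLS 4 higher and 5 lower, BFC012 5 higher and 2 lower, and the interaction 3 and 3.

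Leaving out 1 array gave these ranges of counts, higher then lower: UG26 pair 1 to 3 and 1 to 2, confluent FL pair 9 to 13 and 3 to 4, BM pair 4 to 6 and 4 to 5, 2012 against AFT011 5 to 8 and 4 to 6, OP9 against BFC 11 to 14 and 5, AM pair 11 and 3 to 4, 14F1-1 against 2012 7 and 9 to 12. In sorted cells they were 7 to 10 and 0 to 2 without KLS, 4 to 6 and 1 to 3 with KLS, 0 to 1 and 0 for AFT024 with against without KLS, 0 to 1 and 0 to 1 for BFC012, and 0 to 1 and 0 for the interaction. The F tests passed for 28 to 32 and 25 to 27 genes.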
